A study of Caenorhabditis elegans with 2 samples.

Results

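The insulin signalling pathway of Caenorhabditis elegans, from the receptor gene daf-2 to the transcription factor gene daf-16, was examined for binding of HLH-11. The 10 genes were given by name, and summits were sought from 5000 bp upstream of any annotated start to the gene end. They are 10 of 19973 protein-coding genes, and their windows held 33 of the 7863 summits in the thresholded peak list.

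HLH-11 is a bHLH (basic helix-loop-helix) protein and the worm relative of mammalian AP-4. Proteins of this class bind E-boxes, short sequences of the form CANNTG. Chromatin was immunoprecipitated and sequenced (ChIP-seq) in 2 biological replicates of 1 group, and there is no second condition. Both came from whole L4 larvae of strain OP396, which carries the allele unc-119(tm4063) and the transgene wgIs396, encoding HLH-11 fused at the C-terminus to GFP and FLAG. Mixed-sex larvae, synchronised as starved L1 larvae, had an age of 53 hours, and an anti-GFP antibody was used. The tagged protein is an added copy, and the cells of a whole worm in which a peak arose cannot be told.

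In this pathway insulin-like peptides act on the receptor DAF-2. The receptor recruits the lipid kinase AGE-1, and the lipid it makes activates the kinases PDK-1, AKT-1, AKT-2 and SGK-1. AKT kinases phosphorylate DAF-16, a FOXO transcription factor, and keep it out of the nucleus, while the lipid phosphatase DAF-18 opposes AGE-1. The pathway is known for its control of lifespan, dauer arrest, stress resistance and fat storage in worms.

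There were 4 peak lists: 1 per replicate and 1 for the pooled replicates, of 30000 peaks each, and a thresholded list. The authors labelled the pooled list as peaks and background, used as input for the irreproducible discovery rate (IDR). Its weak entries can therefore be background. The thresholded list was made by the authors with IDR, which rates how alike peaks rank in replicates. The thresholded list equals the 7863 strongest pooled peaks, with signals of 88.3 to 2943. Membership thus followed pooled strength, and 7508 of the 7863 had a partner within 100 bp in both replicates' lists. Signal is the authors' own strength value for a peak, and rank 1 is the strongest peak of a list. Signals were compared only within a list. No read counts are in the lists, and depth is therefore unknown. Of the thresholded peaks 57.6% were 424 bp wide with the summit at their centre, so for those the summit is the middle of an interval of common width.

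Of the 10 genes, 9 had at least 1 thresholded summit (90%, exact binomial interval at 95% 55.5 to 99.7), against 39.0% of all protein-coding genes. The gene without one was age-1. The windows of the 10 genes had a median of 12 kb, against 7.03 kb for all genes, and a longer window can hold more summits. Among genes with windows within 1.2 times the length of a member's, between 28.1% (for daf-16) and 64.0% (for aap-1) had no summit. In promoters, which reach 1000 bp upstream and 500 bp downstream of a start, 3 of the 10 genes had a summit (30%, interval 6.67 to 65.2), against 21.3% of all genes. These were akt-2, sgk-1 and daf-16. With 2000 bp upstream 7 of the 10 had one, since the summits nearest to the starts of daf-2, pdk-1, akt-1 and aap-1 lay 1261, 1398, 1721 and 1677 bp upstream. No share of all genes was computed for this longer promoter, and the 21.3% does not apply to it.

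The windows of the 10 genes held 1.91 thresholded summits per 10 kb, against 0.803 in the windows of all genes. Without daf-16 the density was 1.2 per 10 kb. In the window of daf-16 there were 16 summits, in those of daf-2 and akt-1 4 each, in those of pdk-1, akt-2 and sgk-1 2 each, and in those of ist-1, aap-1 and daf-18 1 each. The median signal of the 33 summits was 175, against 181 for the whole thresholded list, and 16 of the 33 (48.5%) were among its strongest 3931 peaks. Their strength was thus near that of the list as a whole, and their number differed widely between the genes. An intron of the gene held 19 of the 33, sequence upstream of the gene 13, and a 3' UTR 1, and 12 of the 19 intronic summits were at daf-16. Of all 7863 thresholded summits 1824 lay in an intron and 5407 outside the gene, there relative to the gene of the nearest start. The median distance to the nearest protein-coding start was 1836 bp, against 746 bp for all thresholded summits.

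**Figure D1:**
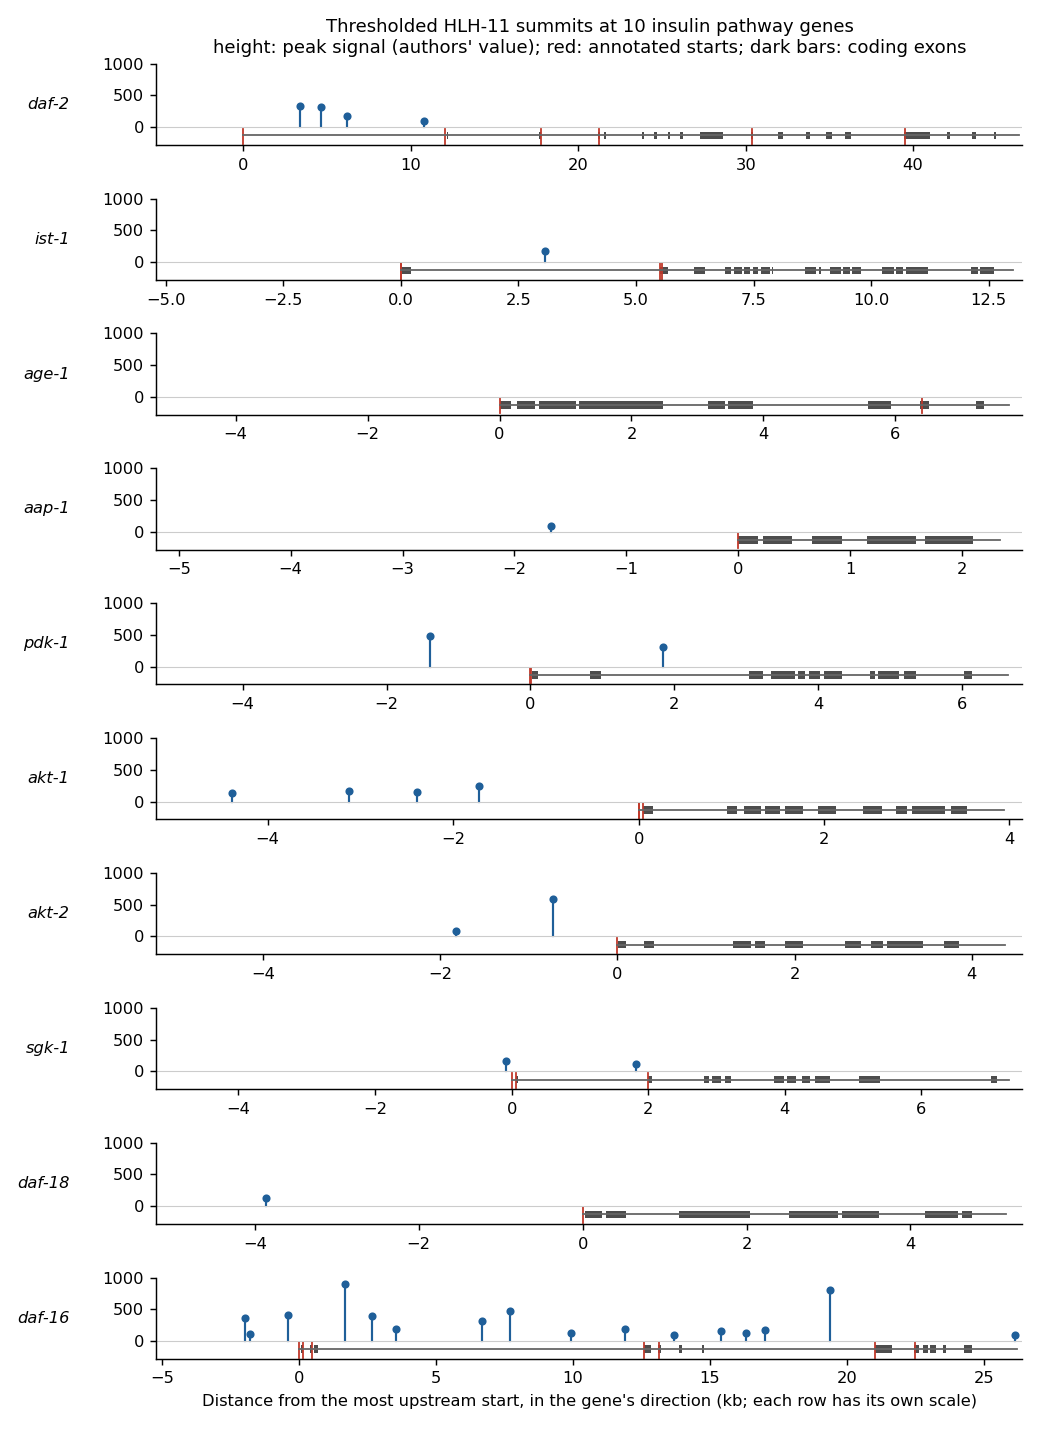
Thresholded HLH-11 summits along each of the 10 genes, with the distance in kb from its most upstream start on the horizontal axis and the authors' peak signal on the vertical axis; each row has its own horizontal scale, red marks are annotated starts and dark bars are coding exons. The 16 summits of daf-16 are spread along the gene, those of daf-2 lie between its 2 most upstream starts, those of akt-1 lie upstream, and age-1 has none.

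By their strongest summit the genes fell in the order daf-16 (signal 900), akt-2 (586), pdk-1 (480), daf-2 (329), akt-1 (241), ist-1 (182), sgk-1 (163), daf-18 (131) and aap-1 (89.2). The partners of these summits within 100 bp kept all 9 genes in the same order in each replicate. By each replicate's own strongest peak in the window, the order differed in replicate 2, where aap-1 (rank 5754, a peak other than the partner) came before daf-18 (rank 6656). Neighbours in the order were close in one replicate: the partners of the akt-1 and ist-1 summits ranked 3306 and 3362 in replicate 1, but 2494 and 4829 in replicate 2.

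Sequences are shown for the strongest summits of 6 members and for the second summits of daf-2 and sgk-1, to set peaks with an E-box beside peaks without one. Each is the 101 bases centred on the summit, on the plus strand of WBcel235, read from the RefSeq assembly. Capitals mark E-boxes (CANNTG), the sequences TGATAA and CTTATC that contain the core of GATA factor sites, and the sequences CGTCTC and ACGCAG, on either strand. The 2 GATA forms overlap in CTTATCA, and ACGCAG on the other strand overlaps CGTCTC in CTGCGTCTC.
daf-2, chrIII:3037420-3037520: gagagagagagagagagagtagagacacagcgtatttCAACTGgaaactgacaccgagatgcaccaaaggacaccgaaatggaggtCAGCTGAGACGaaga
daf-2, chrIII:3036194-3036294: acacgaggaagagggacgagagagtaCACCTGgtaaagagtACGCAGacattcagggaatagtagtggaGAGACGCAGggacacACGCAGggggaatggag
pdk-1, chrX:1319896-1319996: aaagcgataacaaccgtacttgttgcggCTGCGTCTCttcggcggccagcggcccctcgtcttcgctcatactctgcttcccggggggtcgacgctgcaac
akt-1, chrV:10247134-10247234: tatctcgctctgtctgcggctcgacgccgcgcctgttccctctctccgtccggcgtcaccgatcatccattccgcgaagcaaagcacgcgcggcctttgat
akt-2, chrX:14146923-14147023: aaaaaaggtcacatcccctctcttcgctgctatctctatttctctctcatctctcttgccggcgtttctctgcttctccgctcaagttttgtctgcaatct
sgk-1, chrX:16262153-16262253: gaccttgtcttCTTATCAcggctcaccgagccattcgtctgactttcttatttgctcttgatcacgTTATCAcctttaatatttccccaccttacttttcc
sgk-1, chrX:16260257-16260357: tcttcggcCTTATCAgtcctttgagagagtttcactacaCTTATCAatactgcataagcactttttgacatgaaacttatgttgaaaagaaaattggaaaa
ist-1, chrX:7129667-7129767: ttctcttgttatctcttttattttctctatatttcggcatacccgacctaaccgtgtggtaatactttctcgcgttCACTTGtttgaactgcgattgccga

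The receptor gene daf-2 (III, 2994514 to 3040846, minus strand, WBGene00000898) has 6 annotated starts, and its 4 thresholded summits all lay in the long first intron of transcript Y55D5A.5c.1, between the most upstream start and the next one 12046 bp downstream. The strongest peak, III 3037378 to 3037594, ranked 1707 with a signal of 329, and its partners ranked 1618 in replicate 1 and 1971 in replicate 2. Its summit was 3376 bp downstream of the most upstream start and 8670 bp upstream of the start of Y55D5A.5a.1. The next, at 3036125 to 3036342, had a signal of 313 and rank 1843, with ranks of 1586 and 2297 in replicates 1 and 2. Both summits lay within an exon of linc-143, a long intergenic non-coding RNA gene that the annotation places in this intron on the same strand.

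The sequences of these summits hold several of the searched words. The strongest has CAACTG 13 bases before its summit and CAGCTG, the form that AP-4 proteins are known to bind, 36 bases after it, and it opens with a GA repeat. The second has CACCTG 24 bases before its summit and ACGCAG 3 times. The other daf-2 summits, 5852 and 1261 bp upstream of the Y55D5A.5a.1 start, were weaker, with signals of 175 (rank 4097) and 102 (rank 7003). The last ranked 6643 in replicate 1 and 8523 in replicate 2. All 4 daf-2 summits ranked stronger in replicate 1. None of the 6 starts had a thresholded summit in its promoter. Of 19 genes with windows of like length, daf-2 included, 7 (36.8%) had 4 or more summits.

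The ist-1 gene (X, 7126648 to 7139666, plus strand) encodes a homologue of insulin receptor substrates, adaptors that link the receptor to the lipid kinase. Its 1 thresholded summit had a signal of 182 and rank 3906, with ranks of 3362 in replicate 1 and 4829 in replicate 2. It lay in the first intron, 3069 bp downstream of the most upstream start and 2435 bp upstream of the next pair of starts. CACTTG, an E-box, stands 26 bases after this summit. The peak is one of the 424 bp intervals, so the distance to the E-box is from the middle of that interval.

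The lipid kinase genes had the lowest peak signals of the pathway in the thresholded list, where age-1 had no peak, but aap-1 had a stronger peak than daf-18 in replicate 2. AGE-1 is the catalytic subunit of the kinase and AAP-1 its adaptor subunit. The age-1 window (II, 11519328 to 11532054) held no summit in the pooled list or in replicate 1, and 1 in replicate 2, in a coding exon with a signal of 16.2 and rank 27542 of 30000. A pooled summit was found in the windows of the other 9 genes and of 60.7% of all protein-coding genes. Of 1701 genes with windows of like length 47% had no thresholded summit. The pooled summit nearest to the age-1 window lay 2769 bp outside it, had a signal of 243 and stood 344 bp from a start of Y62F5A.12. It entered the count when 10000 bp upstream were searched.

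The aap-1 gene (I, 5107843 to 5110183, plus strand) had 1 thresholded summit, 1677 bp upstream of its start, with a signal of 89.2 and rank 7794, near the end of the list. Its partners ranked 8264 in replicate 1 and 8420 in replicate 2, so it was not among the strongest 7863 of either replicate alone. The summit lay 38 bp upstream of use-1 and within the promoter of pas-3, a proteasome subunit gene, so the peak is at the starts of other genes. In replicate 2 another summit in the window, 2918 bp upstream of the aap-1 start, ranked 5754 with a signal of 71.9, against 62.2 for the strongest daf-18 peak. In replicate 1 a summit 2843 bp upstream ranked only 18946, with a signal of 15.9. The pooled summit there, 2847 bp upstream, ranked 8334 and was outside the thresholded list.

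Among the kinases, pdk-1 and akt-2 had the strongest peaks. PDK-1 activates the AKT kinases. The pdk-1 gene (X, 1321344 to 1327986, plus strand) had a summit 1398 bp upstream of its most upstream start at X 1319765 to 1320131, with a signal of 480 and rank 905. It ranked 991 in replicate 1 and 879 in replicate 2. A second, 1845 bp downstream of that start in the second intron, had a signal of 312 and rank 1852, with ranks of 1776 and 1930 in replicates 1 and 2. Neither has an E-box, TGATAA or CTTATC within 50 bp. The upstream one has 62.4% GC within 50 bp, against a median of 43.6% over all thresholded summits, and both CTGCGT and CGTCTC in 1 run of 9 bases.

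The akt-2 gene (X, 14147700 to 14152070, plus strand) had its main summit in the promoter, 727 bp upstream of its 1 annotated start, at X 14146782 to 14147138. The signal was 586 and the rank 628, with ranks of 797 in replicate 1 and 534 in replicate 2. The shown sequence is rich in C and T, with GAGAGA on the other strand and none of the words given in capitals. The second akt-2 summit, 1822 bp upstream, had a signal of 89.8 and rank 7748, and its partners ranked 10999 and 6726 in replicates 1 and 2. It was thus near the end of the thresholded list and below the strongest 7863 in replicate 1.

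The other AKT gene, akt-1 (V, 10248905 to 10252845, plus strand), had no thresholded summit in its promoter, unlike akt-2. Like akt-2 it had all of its summits upstream and none in the gene. The 4 akt-1 summits lay 1721, 2389, 3125 and 4387 bp from its most upstream start. Their signals were 241, 155, 166 and 139, with ranks of 2734, 4685, 4353 and 5237. The nearest of these ranked 3306 in replicate 1 and 2494 in replicate 2, and the farthest 4047 and 7911. Of 5552 genes with windows of like length, 2.72% had 4 or more summits. The 2 farthest summits were closer to the start of C12D8.9, which is transcribed the other way, at 1313 and 2575 bp. All 4 lay between the starts of akt-1 and C12D8.9. The nearest summit lay in an exon of the non-coding RNA gene C12D8.25 and had no E-box, while each of the other 3 had one.

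The sgk-1 gene (X, 16254842 to 16262122, minus strand), for a kinase of the same family that acts beside the AKT kinases, had both of its summits at annotated starts. The stronger peak, X 16261991 to 16262414, ranked 4427 with a signal of 163, and its summit lay 81 bp upstream of the most upstream start. Its partners ranked 4259 in replicate 1 and 5276 in replicate 2. The other had a signal of 119 and rank 6106 and lay 179 bp upstream of the start of transcript W10G6.2a.2, in the first intron of the longest transcript. It ranked 6275 and 6838 in replicates 1 and 2. Both sequences hold CTTATCA, the stronger 1 time with a further TTATCA, and the weaker 2 times. Neither has an E-box within 50 bp. No other member had TGATAA or CTTATC at every summit.

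The gene of the opposing phosphatase, daf-18 (IV, 420011 to 425177, minus strand), had 1 summit, 3862 bp upstream of its start, with a signal of 131 and rank 5614. It ranked 5088 in replicate 1 and 6656 in replicate 2. The summit lay in the 5' UTR of the neighbouring gene Y66H1A.5, 94 bp downstream of its start. With each summit given only to the gene of the nearest start, daf-18 and aap-1 had none, and 7 of the 10 genes had a summit. No share of all genes was computed by that rule.

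The gene of the pathway's transcription factor, daf-16 (I, 10750498 to 10776703, plus strand, WBGene00000912), had more thresholded summits in its window than any other protein-coding gene except lin-14, a heterochronic gene named after its count of 17 was seen. The 16 summits spanned 28108 bp with a median gap of 1714 bp, or 5.13 per 10 kb of the window. Genes with windows of like length, 135 with daf-16 included, had a median of 1 summit. Among the strongest 7863 peaks of each replicate, 14 summits of replicate 1 and 16 of replicate 2 lay in the window. In replicate 1 lin-14 had 17, and T28B11.1 and vhp-1 also had 14. In replicate 2 mnk-1 also had 16. Among the strongest 3931 thresholded peaks daf-16 had 9, as many as pkg-2 and more than any other gene. In the full pooled list it had 37, and 3 other genes had at least as many.

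**Figure D2:**
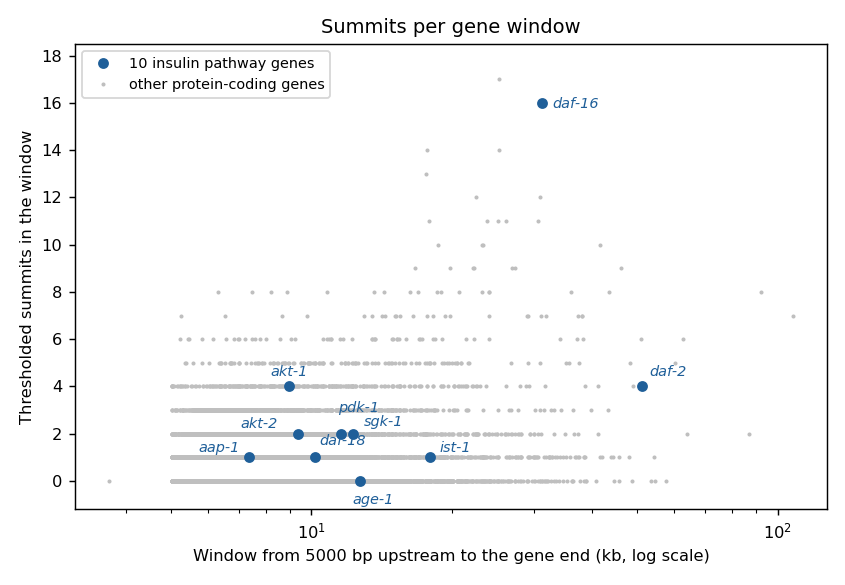
Number of thresholded summits in the window of each protein-coding gene, on the vertical axis, against the length of the window in kb on a log scale; blue points are the 10 insulin pathway genes and grey points all others. daf-16 stands at 16 summits in 31.2 kb, next to 1 gene at 17, while daf-2 has 4 in 51.3 kb and age-1 none in 12.7 kb.

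The daf-16 gene has 7 annotated starts in 3 groups: 3 at its upstream end, 2 that lie 12605 and 13156 bp downstream, and 2 that lie 21010 and 22501 bp downstream. Summits were found upstream of each of the 3 groups. Upstream of the gene, 3 summits lay 1982, 1774 and 415 bp from the most upstream start, with signals of 365, 115 and 414. The nearest of them, in the promoter and in exons of the non-coding RNA genes H36N01.1 and H36N01.4, ranked 1168 in replicate 1 and 1229 in replicate 2, and the farthest 1075 and 1543. The one at 1774 bp shares the interval start of its neighbour at 1982 bp and is the 1 member summit that lacked a partner within 100 bp in a replicate, here replicate 2. When 200 bp were allowed it was matched in replicate 2 too, but to the summit that is already the partner of its neighbour. The strongest summit of the pathway, at I 10751963 to 10752400, had a signal of 900 and rank 247, with a signal of 347 and rank 317 in replicate 1 and a signal of 550 and rank 213 in replicate 2. It lay in the third intron of the transcript R13H8.1f.1, 1696 bp downstream of the most upstream start and 10909 bp upstream of the start shared by R13H8.1b.1 and R13H8.1c.1. CAGCTG was found within 50 bp of it.

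This intron held 7 of the 16 summits. After the strongest came those at 7704 bp (signal 479, rank 914), 2661 bp (401, rank 1222) and 6691 bp (321, rank 1761) from the most upstream start. Of the remaining 3, with signals of 128 to 190, the last lay 688 bp upstream of the R13H8.1b.1 start and was the other promoter summit of daf-16. The fourth intron held 1 summit, with a signal of 99.1 at 532 bp downstream of the start of R13H8.1l.1, and the sixth 4, of which 3 had signals of 161, 129 and 166. Strength varied widely along the gene. Of the 16 summits 7 ranked 2000 or better, as did 25.4% of the thresholded list. The other 9 ranked between 3707 and 7450. The second strongest summit of the pathway was in the sixth intron, at I 10769573 to 10770188, with a signal of 802 and rank 312. It ranked 331 in replicate 1 and 307 in replicate 2 and lay 1622 bp upstream of the start of R13H8.1a.1. That peak is 616 bp wide and has no E-box within 50 bp of its summit. The last summit, with a signal of 94.4, lay in the 3' UTR.

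Some of the sites lay close to the end of the thresholded list, where the weakest signal was 88.3. The weakest member summits inside it were those of aap-1 (89.2), akt-2 (89.8) and daf-16 (94.4). The strongest pooled summits just outside it were at aap-1 (82.4, rank 8334), daf-16 (79.3, rank 8565) and sgk-1 (78.9, rank 8612). In the whole pooled list, where weak entries can be background, daf-16 had 21 further summits below the threshold and daf-2 15. The strongest of these at daf-2 had a signal of 55.4 and rank 11528. The numbers were smaller at sgk-1 and ist-1, with 6 each, at pdk-1 and akt-1, with 4 each, at akt-2 with 2, and at aap-1 and daf-18 with 1 each.

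**Figure D3:**
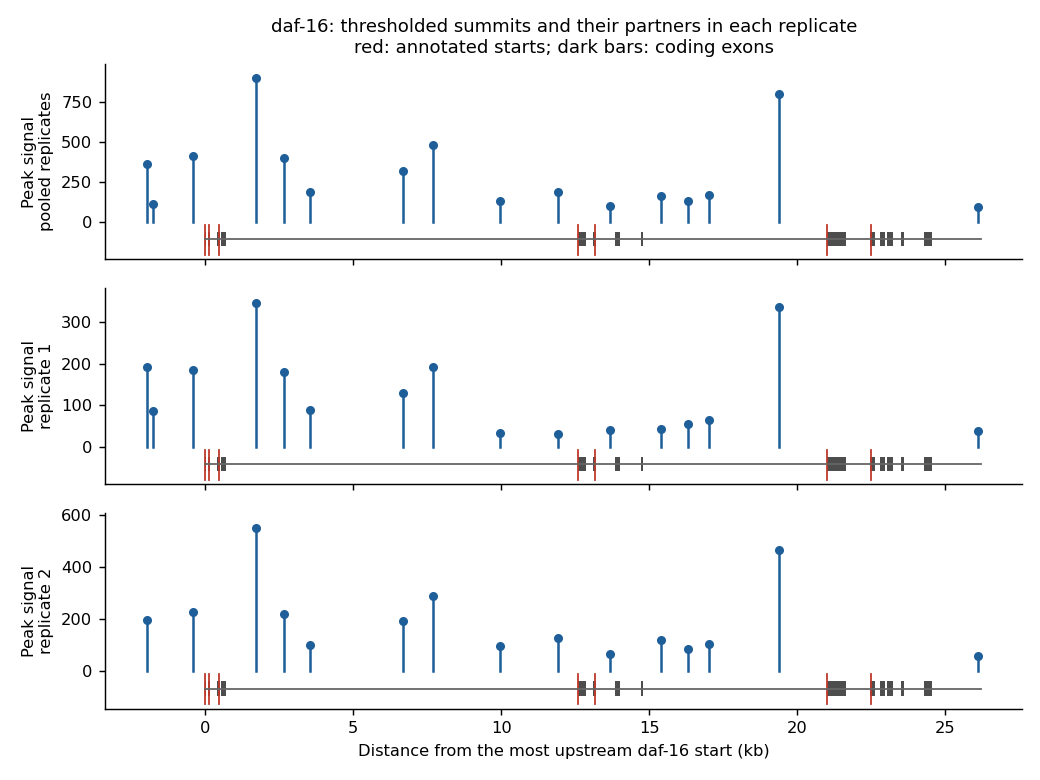
Signals at the 16 thresholded daf-16 summits in the pooled list (top) and of their partners within 100 bp in replicate 1 (middle) and replicate 2 (bottom), against the distance in kb from the most upstream start; each panel has the signal scale of its own list. The same 2 summits, at 1696 and 19388 bp, are highest in all 3 panels. The summit at 11917 bp is the lowest of the 16 in replicate 1, with 30.4, and stands above 7 others in replicate 2, with 127. Its replicate 1 partner lay 83 bp from it, and its replicate 2 partner 1 bp.

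In their full lists of 30000 peaks, the replicates shared nearly all of these sites. Of the 33 summits 32 (97%, interval 84.2 to 99.9) had a partner within 100 bp in both replicates' lists, against 95.5% of all thresholded summits. Among the strongest 7863 of both replicates 23 of 33 (69.7%, interval 51.3 to 84.4) had partners, against 78.6%. The median distance between the partner summits of the replicates was 26 bp, against 19 bp for all. Ranks in the replicates correlated with a Spearman rho of 0.808 over the 32 matched summits, against 0.85 over 7508 matched thresholded summits. The points of each correlation come from the same 2 libraries, and 15 of the 32 are from 1 gene. The pooled list, from which the sites were taken, includes both replicates, so part of this agreement is built in.

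By count, the replicate with the stronger rank differed between loci. Of the 15 matched daf-16 summits 11 (73.3%, interval 44.9 to 92.2) ranked stronger in replicate 2. At the other genes 6 of 17 (35.3%, interval 14.2 to 61.7) did, and 52.3% of all matched thresholded summits. Both intervals included the share of all, and the daf-16 summits all lie at 1 gene. The 3 with the largest differences lay 9947, 11917 and 15402 bp from the most upstream daf-16 start, and ranked 9675, 10556 and 8008 in replicate 1 against 4091, 2941 and 3213 in replicate 2. A rank number in replicate 1 at least 2 times that in replicate 2 was found for these 3 of the 32 member summits and for 3.77% of all matched thresholded summits. For the daf-16 summits at 11917 and 15402 bp, the replicate 1 partners lay 83 and 61 bp away. Their replicate 2 partners lay 1 and 21 bp away, so the 2 replicates may not show the same site there. At akt-2 both summits ranked stronger in replicate 2, and at daf-2 and sgk-1 all 6 ranked stronger in replicate 1. These differences have no error of their own, since each replicate is 1 library.

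**Figure D4:**
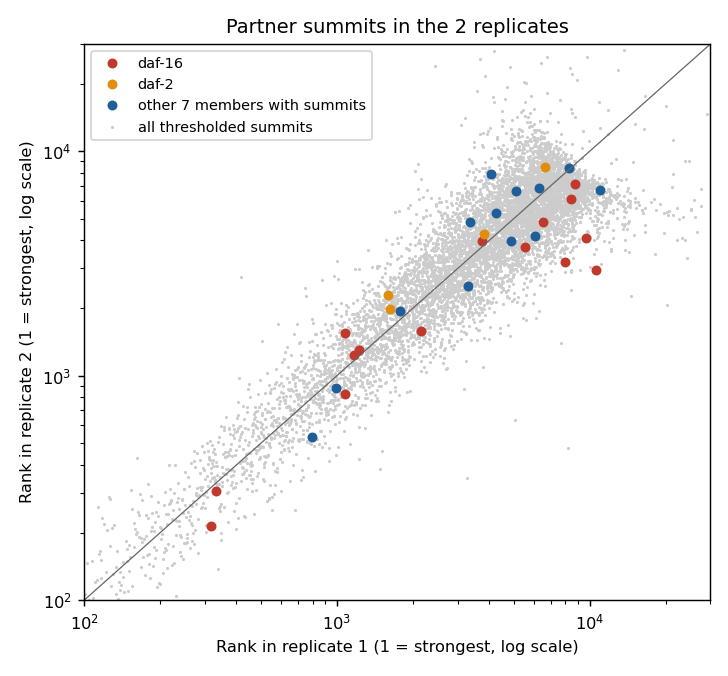
Rank of each summit's partner in replicate 2, on the vertical axis, against its rank in replicate 1, both on log scales with 1 as the strongest. Grey points are the thresholded summits with a partner within 100 bp in both replicates (7508 in all). Coloured points are the 32 of these at the 10 genes, and the line marks equal ranks. The axes leave out the very strongest grey points. Most red daf-16 points lie below the line, stronger in replicate 2, and the 4 orange daf-2 points lie above it.

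The share of these sites with an E-box had an interval that included the share in the whole list. Within 50 bp of the summit 18 of 33 (54.5%, interval 36.4 to 71.9) had CANNTG, against 44.1% of all thresholded summits. CAGCTG was at 2 of the 33, the strongest summits of daf-2 and daf-16, against 4.34% of all, and CACGTG, the form bound by Myc and Max, at none, against 5.84%. Of the strongest summit of each of the 9 genes, 4 had an E-box, those of daf-2, ist-1, aap-1 and daf-16. TGATAA or CTTATC was at 7 of 33 (21.2%), against 28.2% of all. The GA repeat GAGAGA was at 14 of 33 (42.4%, interval 25.5 to 60.8), against 24.3% of all, and CGTCTC and ACGCAG at 7 and 3, against 13.9% and 11.4%. All of these were searched on both strands of 101 bases, and a match describes the letters only. The sites share sources, since 16 of the 33 lie at 1 gene.

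The chromosomes of the genes differed in their share of genes with a summit. The 4 members on X (ist-1, pdk-1, akt-2 and sgk-1) all had one, where 49.5% of the protein-coding genes of X had a summit in the same window, against 37.3% on the autosomes. Of the 6 autosomal members 5 had one.

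Other genes of the pathway were taken from 3 lists of 41 genes in all, of which 20 had a thresholded summit in the window (48.8%), against 39.0% of all protein-coding genes. Insulin-like peptide genes, the ligands, had a summit at 2 of 11: ins-7, with a signal of 240 at 98 bp downstream of its start, and ins-11, with 214 at 3003 bp upstream, nearest to ins-12. Their windows are short, with a median of 5.77 kb. Modulators of the pathway and of DAF-16 had a summit at 9 of 17. The strongest were at the 14-3-3 gene ftt-2, whose protein binds phosphorylated DAF-16 (signal 1131, 565 bp upstream), pptr-1, a phosphatase subunit that acts on AKT-1 (966, 1420 bp upstream), and smk-1, a DAF-16 cofactor (962, 1306 bp upstream, nearest to vps-60). The other 14-3-3 gene, par-5, followed (596, 192 bp upstream, nearest to M117.3). The ftt-2, pptr-1 and smk-1 peaks were stronger than the strongest daf-16 peak.

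Output factors and target genes of DAF-16 had a summit at 9 of 13. The strongest were at the glyoxylate cycle gene icl-1 (signal 1570, 3505 bp upstream and nearest to srh-2), at dod-3 (583, 156 bp upstream), at skn-1, the gene of a stress response factor (500), and at pqm-1, the gene of a factor that responds to DAF-2 signalling in opposition to DAF-16 (449). The dod-3 summit ranked 528 in replicate 2 and had no partner within 100 bp in replicate 1. The superoxide dismutase gene sod-3, a classic DAF-16 target, had none.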

How the data were processed

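ChIP-seq peak lists of 2 replicates of 1 group were used. The lists were deposited on ce11, the same assembly as WBcel235, and the authors called peaks on each replicate and on the pooled replicates against a control, which is not analysed here. No aligner or peak caller is named in the sources used here. Peak signal, the −log10 q-value and the summit offset are the authors' deposited columns, on a scale that the file headers do not state. Only signal and summit position were used as values, and the read depth is unknown.

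Gene windows came from Ensembl release 115 and sequence from the RefSeq assembly. Summits were assigned, ranked and matched with Python 3.11.15 and NumPy 2.4.6, intervals are exact binomial ones at 95% from SciPy 1.17.1, and figures were drawn with matplotlib 3.10.9. Intervals cover the counting of genes or peaks only. A gene's window ran from 5000 bp upstream of any start to the gene end, and partner summits of the replicates lay within 100 bp. The steps were tested on simulated data. No test was made, since there is 1 group.

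The members and lists were chosen with earlier results of these data known, and the sequences GAGAGA and CGTCTC, with ACGCAG, were searched because those results named them. The genes named are the 10 members, up to 4 genes with the strongest peaks of each other list, and genes whose start is nearest to a member's summit. Other genes, lin-14, pkg-2, pas-3, linc-143, C12D8.25 and sod-3 among them, were named after their values or positions were seen.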

Additional observations from a re-analysis of the deposited data

How the results depend on the processing

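The strongest 3931 thresholded peaks gave 16 summits at the 10 genes, 0.925 per 10 kb and 16 found in both replicates. No density over all genes was computed for those peaks, since the 0.803 per 10 kb is for the full thresholded list. With 2000 bp upstream, 7 genes had a promoter summit, and no share of all genes was computed for that promoter. An E-box within 25 bp was found at 10 summits. Without daf-16, a setting chosen after seeing the data, 17 summits remained, at 1.2 per 10 kb, 17 of them in both replicates and 9 with an E-box. These follow from fewer peaks, longer promoters, narrower motif windows or fewer genes. With 1 replicate left out, the other's strongest 7863 peaks were taken. Then 8 to 9 genes had a summit, with 29 to 31 summits at 1.68 to 1.79 per 10 kb. A promoter summit was found at 3 genes, and 20 other pathway genes had a summit. In the same windows 8001 of 19973 protein-coding genes had a summit without replicate 2, and 7700 without replicate 1. No density or promoter share over all genes was computed for a single replicate. The gene lost without replicate 2 was aap-1. Without replicate 1 it was kept by the replicate 2 peak of rank 5754, which is not the partner of its thresholded summit. The median rank of the members' strongest peaks was 2494 to 3306 in a single replicate, against 2734 in the thresholded list. The other settings moved each result by no more than 1.5 times, with 6 to 10 genes having a summit. The lowest count, 6, came with 1000 bp upstream and with the strongest 3931 peaks. With those peaks 4953 of 19973 protein-coding genes had a summit. For upstream lengths other than 5000 bp, and for summits given to the nearest start, no share of all genes was computed. No paired analysis was possible because there is 1 group.

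There were 2 replicates and no read counts, so no error can be put on a peak's signal, and ranks near the end of the thresholded list, as at aap-1 and the weaker akt-2 summit, depend on where that list stops. Windows overlap other genes, and 4 of the 33 summits were nearer to another gene's start. The lists do not show whether binding changes the expression of these genes.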
